A study of Mus musculus with 30 samples.

Results

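The genes described here encode proteins of the cytosolic ribosome in mouse T cells. They were the gene symbols that begin with Rpl, Rps or Rplp followed by a number, with an optional a or x, and that stood in all 3 deposited count tables. Symbols ending in -ps (pseudogenes) were left out, and a mean of at least 10 CPM (counts scaled to the library total) was asked for in at least 1 cell population. Of 20730 symbols shared by the tables, 75 had such a name and 74 passed: 43 of the large (60S) subunit, 28 of the small (40S) subunit and 3 of the P stalk. The lowest gene inside the limit was Rps28, whose highest population mean was 16.9 CPM. The gene outside it was Rps29, at 5.01 CPM at most. Some proteins of the ribosome have other symbols, such as Rpsa, Rps3a1 and Fau, and are given separately.

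Bulk RNA was sequenced from T cells sorted from C57BL/6 mice, in 30 libraries. Wild-type mice (WT) were compared with conditional knockout mice (CKO) of genotype CD4-Cre+ PRMT5fl/fl, in which a Cre driven by Cd4 regulatory elements deletes floxed Prmt5 in developing T cells. Prmt5 encodes an arginine methyltransferase. Each of 5 populations had 3 WT and 3 CKO libraries: thymus double-positive (DP), thymus CD4, thymus CD8, spleen CD4 and spleen CD8 cells. Without a group that carried only Cre, the Cre transgene and the loss of Prmt5 cannot be told apart, and the labels used here give no age. Numbers in the titles were read as animal numbers and link thymus DP with thymus CD4, and spleen CD4 with spleen CD8. The labels do not say that replicates came from separate mice, so the p-values measure the spread between these libraries.

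Each ribosome contains 1 copy of most of these proteins, arranged around the ribosomal RNAs of its subunits. The mRNAs of mammalian ribosomal proteins usually start with a C followed by an unbroken run of pyrimidines, the 5' terminal oligopyrimidine (TOP) motif. Through it their translation and stability respond together to the kinase mTOR and the RNA-binding protein Larp1. In T cells, ribosome production rises on activation, and the large-subunit protein Rpl22 is required for the development of alpha-beta T cells. Rps10 is a known substrate of Prmt5.

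The first bases of several of these genes are shown because the TOP motif is the feature that the family is known to share. Each window holds 10 bases before the RefSeq transcript start and 20 from it on, in GRCm38.p6, on the sense strand. Capitals mark a run of at least 5 C or T bases that begins with C within 3 bases of the start. The base before the capitals can also be C or T. Where a gene had several annotated starts, the one with the longest run is shown.
Rps24, with a run, chr14:24490668-24490697: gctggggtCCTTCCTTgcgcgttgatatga
Rpl12, with a run, chr2:32961702-32961731: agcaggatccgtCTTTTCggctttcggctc
Rplp2, with a run, chr7:141447641-141447670: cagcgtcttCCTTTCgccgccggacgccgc
Rps10, with a run, chr17:27635225-27635254: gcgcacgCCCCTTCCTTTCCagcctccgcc
Rpl27a, with a run, chr7:109519185-109519214: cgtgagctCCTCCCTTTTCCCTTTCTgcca
Rplp0, with no run, chr5:115559457-115559486: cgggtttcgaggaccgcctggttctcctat
Rps4x, with no run, chrX:102189372-102189401: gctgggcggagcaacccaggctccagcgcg
Rpl5, with no run, chr5:107900518-107900547: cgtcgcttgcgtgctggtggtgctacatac
Rpl41, with no run, chr10:128549149-128549178: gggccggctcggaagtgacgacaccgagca
A RefSeq window was at hand for 55 of the 74 genes. Of these 55, 23 had a run by this rule (41.8%), against 13.5% of 27025 genes in the same table. The rule reads only annotated starts, and a start placed some bases away from the one used in T cells hides the motif.

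The 74 genes lie on 19 chromosomes, and 4 are on the X chromosome (Rps4x, Rpl10, Rpl36a and Rpl39). In the GENCODE annotation of GRCm38, 28 contain small nucleolar RNA genes, which guide the chemical modification of ribosomal RNA. For 57 genes the annotation holds pseudogenes named after them, and 19 share exon bases with another gene. Reads that match such copies could have been assigned or dropped differently, so single levels are uncertain. Levels were therefore not compared between the 3 tables. Rpl23a averaged 1.70 CPM in thymus DP and 223 CPM in thymus CD8, which are in separate tables, and Rps18 averaged 154 and 40.4 CPM in the same order.

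Library totals ran from 11865646 to 35353441 counts. Prmt5, the targeted gene, was called lower in 4 populations, with log2 fold changes (CKO over WT) of -0.87 ± 0.12 (SE) in spleen CD8, -1.09 ± 0.09 in thymus DP, -0.31 ± 0.05 in thymus CD8 and -0.97 ± 0.10 in spleen CD4 (adjusted p = 8.29e-04, 8.45e-04, 0.0450 and 1.09e-04, edgeR's quasi-likelihood test with Benjamini-Hochberg adjustment). In thymus CD4 its estimate of -0.99 ± 0.27 was not called (adjusted p = 0.958). Lineage markers fitted the spleen labels, with Cd8a at 2.31 to 5.38 CPM in spleen CD4 and at 1080 to 1500 CPM in spleen CD8. The libraries labelled thymus CD4 went partly against their label. Their Cd8a was 1130 to 1540 CPM in WT, and 2210, 43.4 and 967 CPM in CKO 14, CKO 17 and CKO 23. Results for thymus CD4 rest on these libraries, and CKO 14 and CKO 17 stand apart in opposite directions. Thymus CD8 libraries had Cd8a at 839 to 990 CPM and Cd4 at 36.4 to 55.8 CPM. They also held Rag1 (703 to 905 CPM) and Dntt (794 to 1080 CPM), which are markers of double-positive cells. Mki67, a marker of dividing cells, was at 2160 to 2560 CPM there. How mature the thymus CD8 cells were was not tested.

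Ribosomal protein genes took a smaller share of counts in knockout than in WT CD8 cells of the spleen. Their summed share of counts was 5.27%, 4.81% and 4.86% in the 3 WT libraries of spleen CD8, and 3.64%, 3.70% and 3.41% in the 3 CKO libraries. The groups did not overlap, and the mean was 28.1% lower in CKO (4.98% ± 0.254 against 3.58% ± 0.15, SD, n = 3). In an exact two-sided permutation test this gave p = 0.1, the smallest that 3 against 3 libraries allow, and p = 0.333 after Benjamini-Hochberg adjustment over the 5 populations. Exact 95% intervals of single libraries, which cover counting error only, were narrow: 5.26% to 5.28% in WT 67, and 3.41% to 3.42% in CKO 72. In bulk RNA, fewer cells of a type and less RNA per cell cannot be told apart.

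**Figure D1:**
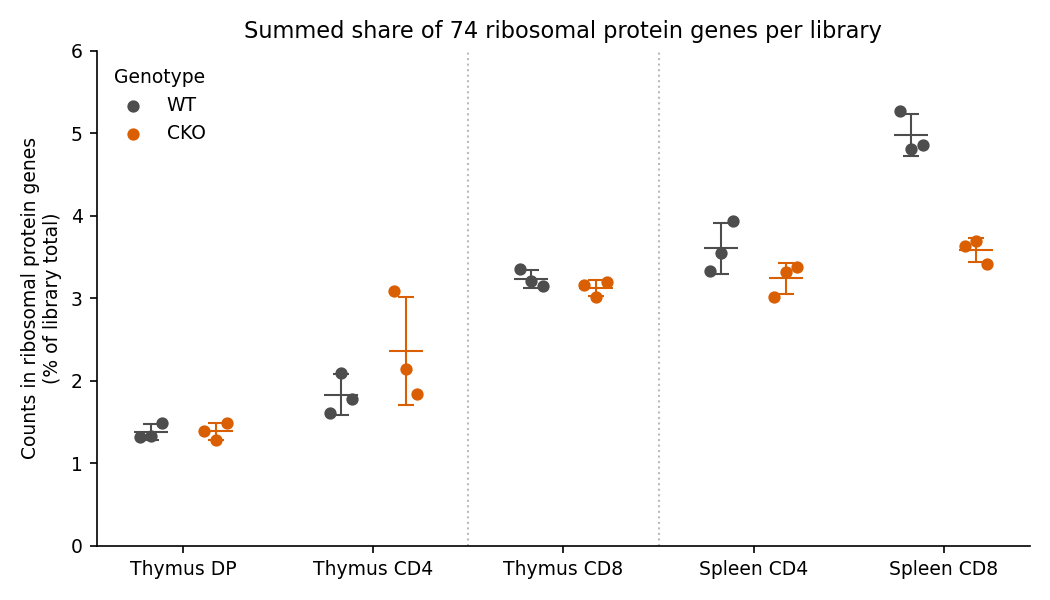
Share of all counts (%, vertical axis) in the 74 ribosomal protein genes. Points are libraries, horizontal marks are means and bars are SD (n = 3), with WT in grey and CKO in orange; dotted lines part the 3 count tables, whose levels are not comparable. In spleen CD8 the CKO libraries (3.41% to 3.70%) lie below the WT libraries (4.81% to 5.27%), and in the other populations the genotypes overlap.

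The other 4 populations had overlapping genotypes. In spleen CD4 the share was 3.60% ± 0.306 in WT and 3.24% ± 0.192 in CKO (exact permutation p = 0.2, n = 3). In thymus DP it was 1.37% ± 0.0968 and 1.39% ± 0.102 (exact p = 0.9), and in thymus CD8 3.23% ± 0.105 and 3.12% ± 0.0945 (exact p = 0.3). In thymus CD4 it was 1.83% ± 0.249 in WT, and 3.09%, 2.14% and 1.84% in CKO 14, CKO 17 and CKO 23 (exact p = 0.2). The high library there, CKO 14, is also the one with the highest Cd8a.

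The large subunit, the small subunit and the stalk shared the pattern in spleen CD8. The small subunit held 2.17% ± 0.113 of counts in WT and 1.56% ± 0.0721 in CKO, a ratio of 0.720. The ratio was 0.729 for the large subunit (2.22% ± 0.118 to 1.62% ± 0.0615) and 0.684 for the stalk (0.591% ± 0.0228 to 0.405% ± 0.0164). Rows named as ribosomal protein pseudogenes had a ratio of 0.720 as well (0.659% ± 0.0236 to 0.475% ± 0.0227). Genes of the mitochondrial ribosome, which translates only the genes of the mitochondrion, had 0.172% ± 0.00775 and 0.167% ± 0.00737 (ratio 0.966).

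Gene by gene, 61 of the 74 were called lower in CKO spleen CD8 cells (adjusted p under 0.05) and 0 were called higher. Among all 13917 genes tested in that population, 6.22% were called lower and 9.83% higher. All 74 estimates were negative with TMM scaling (for Rpl27 the unscaled CPM means pointed the other way), and for 67 genes the 3 CKO libraries lay below the 3 WT libraries, which held for 14.5% of all genes tested. Among all genes 20.1% had CKO libraries all above WT, and among the members 0. The median log2 fold change of the members was -0.46, against -0.01 for all genes tested. Calls came from 36 of the 43 large-subunit genes, 22 of the 28 small-subunit genes and all 3 stalk genes. The count was 55 to 62 when any 1 library was left out, 65 with DESeq2 and 63 with limma voom.

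**Figure D2:**
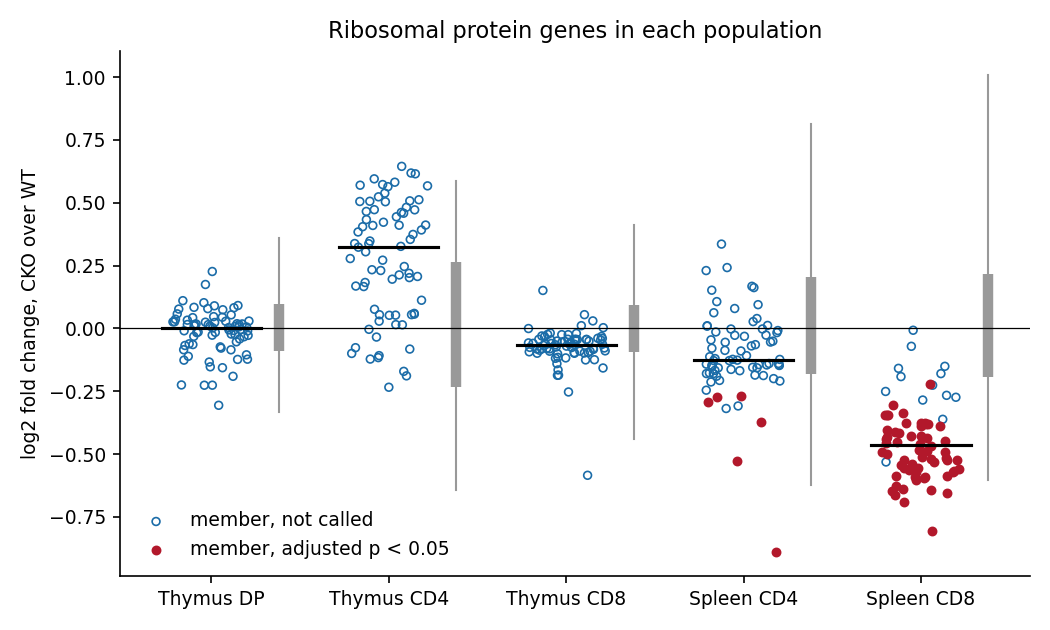
Log2 fold change, CKO over WT (vertical axis), of each of the 74 genes in each population. Filled red points passed adjusted p under 0.05, open points did not, and black lines are the medians; the grey bar beside each population spans the middle 50% and the thin line the middle 90% of all genes tested. In spleen CD8, 61 genes are called and the median is -0.46; in spleen CD4, 6 are called; in the 3 thymus populations none is.

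The stalk proteins form the flexible arm of the large subunit that recruits elongation factors. Rplp0, which anchors the stalk, had 3609, 3439 and 3497 CPM in WT spleen CD8 and 2358, 2446 and 2329 CPM in CKO. Every CKO library lay far below every WT library, and the gene was called lower (log2 -0.59 ± 0.06, adjusted p = 1.52e-04). Rplp1 went from 1594 ± 123.5 to 1078 ± 76.9 CPM (log2 -0.59 ± 0.08, adjusted p = 6.16e-04), and Rplp2 from 805 ± 19.3 to 592 ± 35.8 CPM (log2 -0.47 ± 0.07, adjusted p = 9.29e-04).

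In the large subunit the call with the smallest p was Rpl8 (uL2), a protein close to the peptidyl transferase centre. Its values were 2035, 1864 and 1886 CPM in WT and 1259, 1283 and 1209 CPM in CKO, with no overlap (log2 -0.65 ± 0.06, adjusted p = 1.43e-04). Rpl17 (log2 -0.59 ± 0.06) and Rpl21 (log2 -0.66 ± 0.08, from 494 ± 37.02 to 319 ± 19.9 CPM) were among the 10 calls with the smallest p. The lowest estimate of all was that of the X-linked Rpl36a, at 49.06, 40.65 and 44.29 CPM in WT and 27.98, 27.94 and 21.98 CPM in CKO (log2 -0.81 ± 0.11, adjusted p = 0.00100).

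Rpl5 and Rpl11 bind 5S ribosomal RNA as 1 particle, which can also inhibit Mdm2 and so stabilise p53 when ribosome assembly fails. Rpl5 had 120, 116 and 114 CPM in WT spleen CD8 and 73.3, 82.5 and 72.2 CPM in CKO (log2 -0.64 ± 0.08, adjusted p = 4.57e-04). Rpl11 went from 381 ± 9.03 to 293 ± 19.4 CPM (log2 -0.40 ± 0.07, adjusted p = 0.00217). Rpl22 had 363, 325 and 318 CPM in WT and 256, 249 and 241 CPM in CKO (log2 -0.45 ± 0.07, adjusted p = 0.00162). Its paralog Rpl22l1, whose level is known to be held down by Rpl22, was lower as well, from 126 to 92.8 CPM (log2 -0.47 ± 0.08, adjusted p = 0.00281). Rpl13a, known for a role in silencing inflammatory mRNAs outside the ribosome, went from 1694 ± 145 to 1326 ± 15.6 CPM (log2 -0.38 ± 0.07, adjusted p = 0.00469).

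In the small subunit, Rps24, Rps20, Rps15 and Rps4x were among the 10 calls with the smallest p. Rps24, which is mutated in some forms of Diamond-Blackfan anaemia, had 1872, 1724 and 1765 CPM in WT and 1177, 1228 and 1086 CPM in CKO (log2 -0.64 ± 0.07, adjusted p = 1.97e-04). Rps4x, on the X chromosome, had 2529, 2291 and 2288 CPM in WT and 1653, 1629 and 1589 CPM in CKO (log2 -0.57 ± 0.06, adjusted p = 2.72e-04). Both genes had groups far apart relative to their spread. The log2 fold changes were -0.63 for Rps20 and -0.60 for Rps15.

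Several small-subunit proteins with known further roles were also called lower. Rps19, the most often mutated gene in Diamond-Blackfan anaemia, went from 825 ± 59.2 to 587 ± 41.9 CPM (log2 -0.51 ± 0.08, adjusted p = 0.00128). Rps6, the classic substrate of the S6 kinases, went from 73.2 ± 3.65 to 55.8 ± 5.03 CPM (log2 -0.41 ± 0.09, adjusted p = 0.00855). Rps2, an arginine-rich protein that arginine methyltransferases modify, went from 1715 ± 113 to 1340 ± 74.7 CPM (log2 -0.38 ± 0.07, adjusted p = 0.00509), and Rps27 from 25.5 ± 2.89 to 18 ± 0.735 CPM (log2 -0.52 ± 0.11, adjusted p = 0.00920).

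Rps10 had 62.92, 61.02 and 67.96 CPM in WT spleen CD8 and 48.6, 55.6 and 38.2 CPM in CKO. The groups did not overlap (log2 -0.45 ± 0.12, adjusted p = 0.0272). The call was lost without WT 67, WT 70, WT 71 or CKO 72 (adjusted p = 0.0824, 0.0566, 0.107 and 0.0719). The annotation gives Rps10 exon overlaps with 2 other genes and 4 named pseudogenes, so its level is less certain than those above.

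**Figure D3:**
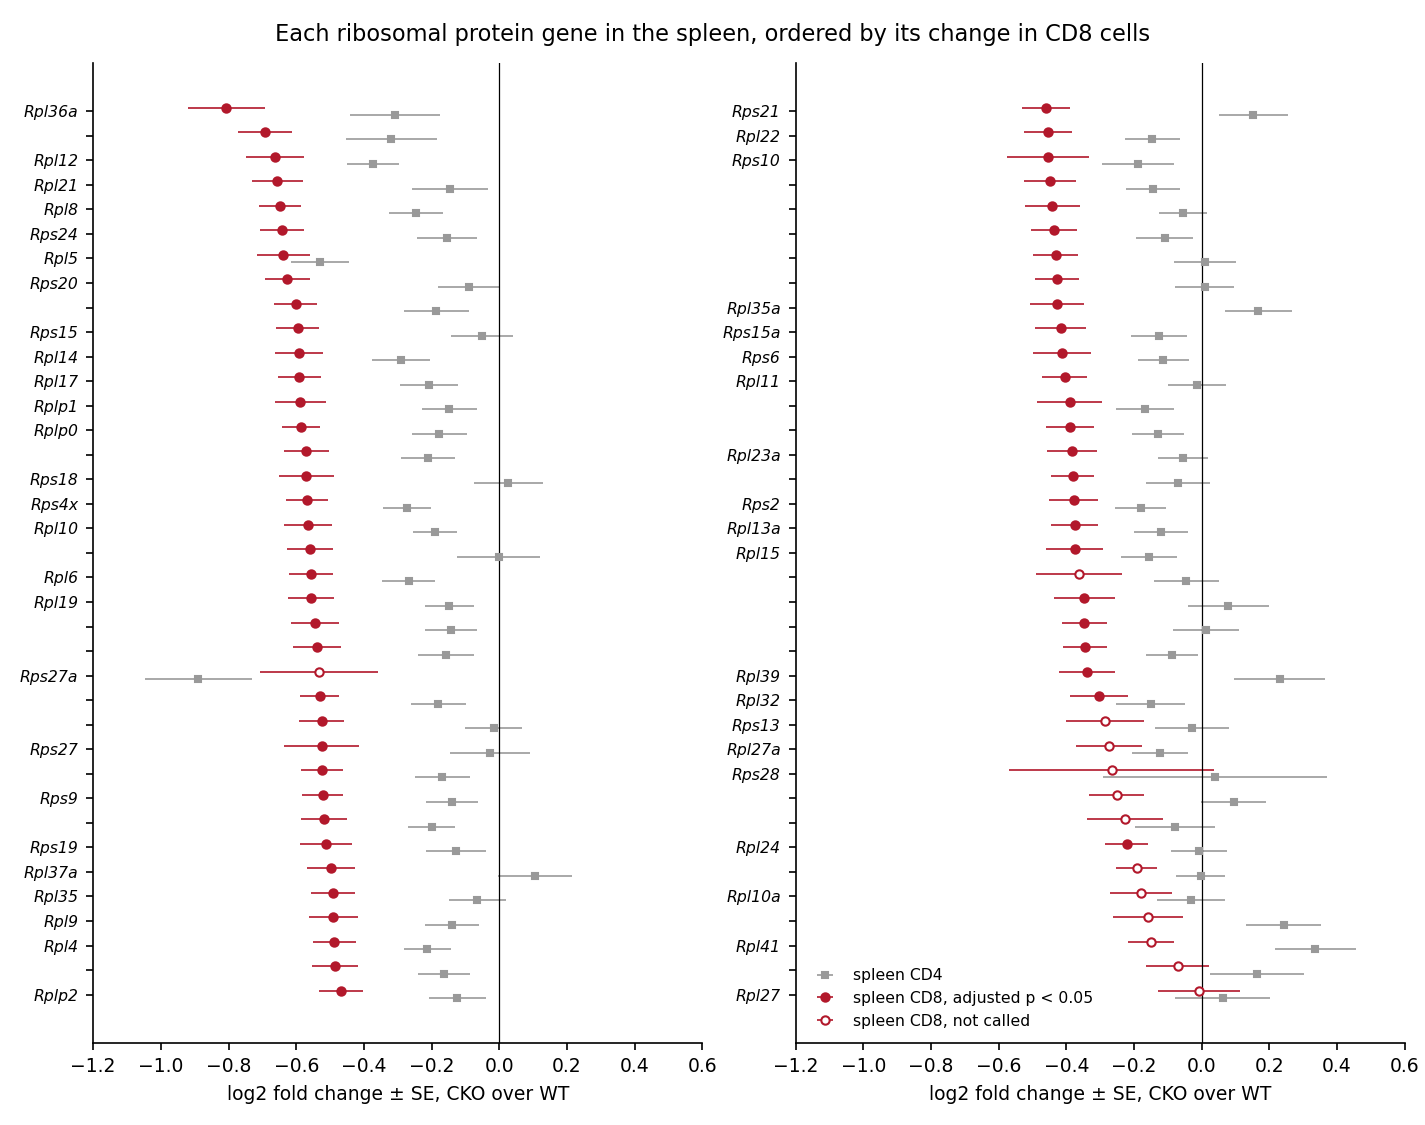
Log2 fold change ± SE (horizontal axis, CKO over WT) of every gene in the spleen, ordered by the estimate in CD8 cells over 2 columns; genes named in the text are labelled. Red circles are spleen CD8 (filled where adjusted p is under 0.05) and grey squares are spleen CD4. All 74 red circles lie below 0, from -0.81 (Rpl36a) to -0.01 (Rpl27), and Rps27a is the gene whose grey square lies clearly to the left of its red circle.

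The 13 genes without a call in spleen CD8 had estimates from -0.53 (Rps27a) to -0.01 (Rpl27). Their median level was 39.8 CPM in WT, against 494 CPM for the 61 called genes, and their median log2 was -0.23 against -0.50. Rpl27 had 25.5, 20.9 and 22.1 CPM in WT and 20.7, 25.4 and 23.1 CPM in CKO, so its groups overlapped (adjusted p = 0.976). Its mean CPM was 22.8 in WT and 23.1 in CKO, so the sign of its estimate rests on the TMM scaling. Rpl41, which encodes the smallest ribosomal protein, had 417, 423 and 389 CPM in WT and 405, 370 and 350 CPM in CKO (log2 -0.15 ± 0.07, adjusted p = 0.162). Across the members the median log2 was -0.37 in the 24 lowest by WT CPM, -0.48 in the middle 26 and -0.52 in the 24 highest.

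Members with and without a pyrimidine run at the annotated start had similar sizes of change. An annotated start some bases away hides the motif, so genes without a run here can still carry it. The comparison therefore cannot decide whether the motif itself matters. The median log2 fold change in spleen CD8 was -0.44 for the 23 genes with a run and -0.47 for the 32 without. Of the genes with a run 19 of 23 were called lower, and of those without 25 of 32. Among the windows printed above, Rps24 and Rpl12 (log2 -0.66 ± 0.09) have a run and were called, Rpl27a has a long run and was not (log2 -0.27 ± 0.10, adjusted p = 0.0847). Rplp0 and Rps4x have none and were called.

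Spleen CD4 cells showed a smaller and less uniform difference. There 6 of the 74 genes were called lower and 0 higher, where 5.63% of 14292 genes tested were called lower and 8.53% higher. The members' share of calls, 6 of 74, is near that background. The median log2 was -0.12 (all genes -0.01), 59 estimates were negative, and 19 genes had CKO libraries all below WT, a pattern held by 16.5% of all genes tested. The median was -0.06 without CKO 65 and -0.07 without WT 71. The count of calls lower was 3 without WT 70, WT 71, CKO 65 or CKO 72, and without CKO 65 there were also 3 called higher. DESeq2 called 10 lower and 1 higher.

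Of the 6 calls in spleen CD4, Rps27a and Rpl5 were the furthest from 0. Rps27a is made as a fusion of ubiquitin and a small-subunit protein. It had 58.1, 61.2 and 71.1 CPM in WT and 24.8, 35.0 and 42.1 CPM in CKO, with a wide gap between the groups (log2 -0.89 ± 0.16, adjusted p = 0.00311). Rpl5 had 95.05, 100.2 and 96.56 CPM in WT and 60.77, 74.98 and 64.86 CPM in CKO (log2 -0.53 ± 0.09, adjusted p = 0.00198). Rpl12, part of the stalk base, went from 142 ± 9.56 to 109 ± 7.30 CPM (log2 -0.37 ± 0.08, adjusted p = 0.00731). These 3 calls held in every fit with 1 library left out.

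The other 3 calls in spleen CD4 were Rps4x (log2 -0.27 ± 0.07, adjusted p = 0.0255), Rpl6 (log2 -0.27 ± 0.08, adjusted p = 0.0392) and Rpl14 (log2 -0.29 ± 0.09, adjusted p = 0.0406). All 3 were lost without WT 70, WT 71, CKO 65 or CKO 72, and Rps4x also without CKO 68. Their adjusted p in those fits ran from 0.0527 (Rps4x without CKO 68) to 0.160 (Rpl14 without WT 71). Rplp0, called in spleen CD8, had 2349, 2380 and 2627 CPM in WT spleen CD4 and 1944, 2217 and 2291 CPM in CKO (log2 -0.18 ± 0.08, adjusted p = 0.178). Its groups did not overlap in spleen CD4 either, but the gap was narrow. Rpl41 stood on the other side of 0 there, at 256, 256 and 310.5 CPM in WT and 281.5, 348 and 400 CPM in CKO (log2 0.34 ± 0.12, adjusted p = 0.0850).

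**Figure D4:**
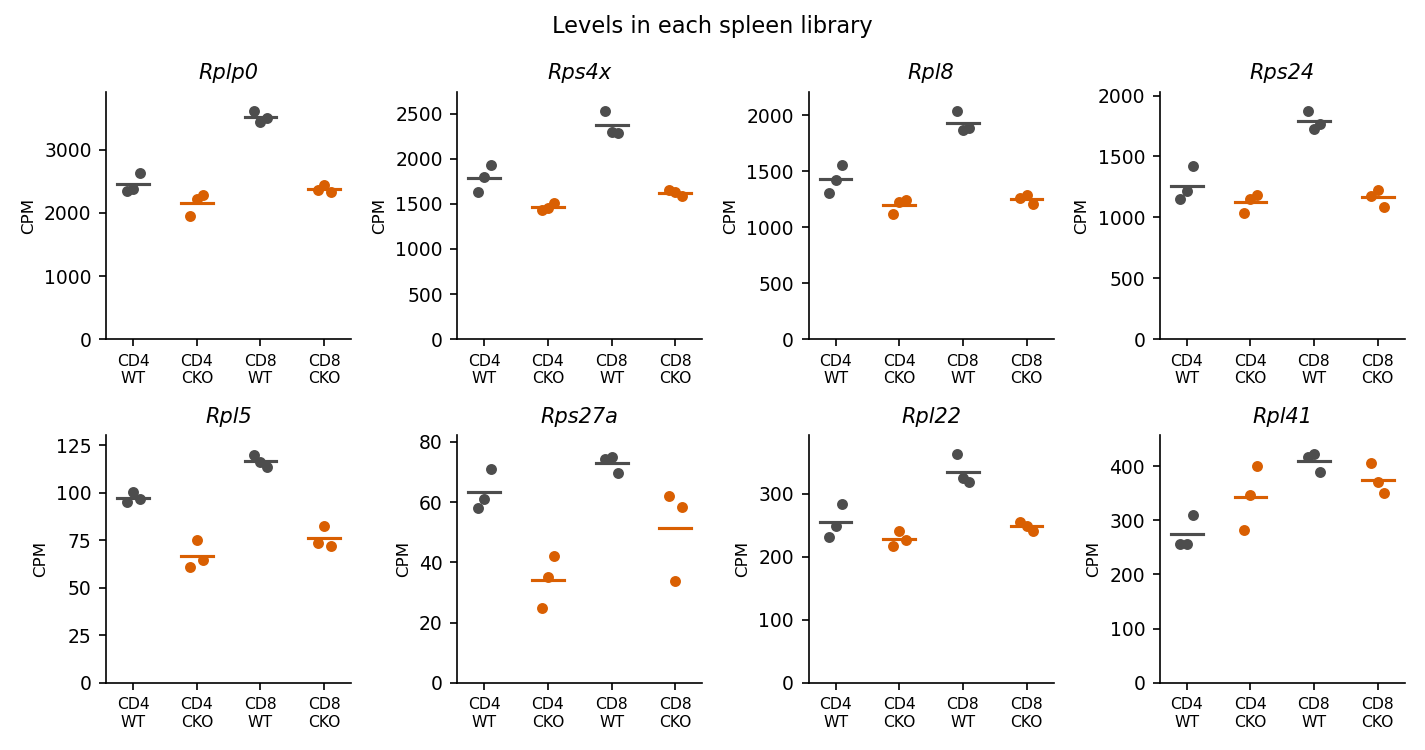
CPM (vertical axis, from 0) of 8 genes in every spleen library by cell type and genotype; points are libraries and lines are means of 3. For Rplp0, Rps4x, Rpl8 and Rps24 the WT CD8 libraries stand above the other 3 groups, Rpl5 and Rps27a are low in CKO of both cell types, and Rpl41 overlaps between the genotypes.

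Rps27a varied more between the CKO libraries of spleen CD8 and of thymus CD8 than the other members named there. In spleen CD8 it had 74.4, 74.9 and 69.6 CPM in WT and 62.1, 33.6 and 58.3 CPM in CKO 65, CKO 68 and CKO 72 (log2 -0.53 ± 0.17, adjusted p = 0.0630). It was called there without CKO 65 (adjusted p = 0.0220), without CKO 68 (adjusted p = 0.0270) and by DESeq2 (adjusted p = 0.00807). In thymus CD8 it had 65.3, 59.9 and 73.2 CPM in WT and 36.5, 61.6 and 35.0 CPM in CKO 1, CKO 2 and CKO 3 (log2 -0.58 ± 0.17, adjusted p = 0.264). CKO 2 lay within the WT range, and without it the gene was called (log2 -0.90, adjusted p = 0.00403). In thymus DP it was 13.1 ± 1.16 CPM in WT and 13.3 ± 0.521 CPM in CKO. Rps27a shares exon bases with Clhc1 in the annotation and has 2 named pseudogenes.

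Whether the knockout effect differed between the cell types was tested as an interaction over the 12 spleen libraries. The difference (CD8 minus CD4) was called negative for 14 of 74 members and positive for 0, where 0.749% of 14958 genes were called negative and 1.81% positive. Estimates were negative for 73 members, with a median of -0.35 against -0.02 for all genes. With the animal as a block, 42 members were called negative. That fit also called 1083 of all genes in either direction, against 383 without the block. The count of 14 rests on single libraries: it was 0 without CD4 WT 67, CD4 WT 70, CD4 CKO 68, CD4 CKO 72, CD8 WT 67, CD8 WT 71 or CD8 CKO 72. It was 4 without CD8 WT 70, 7 without CD8 CKO 65, 8 without CD8 CKO 68, 24 without CD4 WT 71 and 33 without CD4 CKO 65. The median of the members stayed between -0.42 and -0.29 in these 12 fits.

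The largest called differences were those of Rps21, Rpl37a, Rps18 and Rpl35a. Rps21 had 188, 175 and 222 CPM in WT spleen CD4 and 187, 223 and 234 CPM in CKO, which overlap. In spleen CD8 it had 275, 283 and 267 CPM in WT and 223, 201 and 185 CPM in CKO, which do not. The difference of the effects was -0.61 ± 0.14 (adjusted p = 0.0245). It was -0.61 ± 0.14 for Rpl37a (adjusted p = 0.0355), -0.60 ± 0.14 for Rps18 (adjusted p = 0.0286) and -0.60 ± 0.14 for Rpl35a (adjusted p = 0.0336). Rps27a was the 1 member with a positive estimate (0.36, adjusted p = 0.692), and Rpl5 had one near 0 (-0.11, adjusted p = 0.811).

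The WT spleen gives the level from which these effects start. In WT, 70 of the 74 members were called higher in CD8 than in CD4 cells and 0 lower, where 15.3% of 14131 genes were called higher and 16.5% lower. The median log2 difference (CD8 over CD4) was 0.51, from 0.12 (Rps13) to 0.72 (Rps18). In CKO, 8 were called higher and 0 lower, where 8.29% of 14253 genes were called higher and 10.3% lower, and the median was 0.14. The members' share of calls in CKO, 8 of 74, is near that background. With the animal as a block 36 members were called higher in CKO. That fit also called 5055 of all genes in either direction, against 2656 without the block. Among the 8 were Rps2, Rpl4, Rpl32, Rpl6, Rpl10a, Rpl23a and Rpl24, with log2 differences of 0.24 (Rpl6) to 0.37 (Rpl10a). The count was 3 without CD4 CKO 65, 4 without CD8 CKO 68, and 5 without CD4 CKO 68 or CD8 CKO 65. Both comparisons share their libraries with the knockout comparisons and are no independent support for them.

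Within an animal, the summed share in CD8 cells divided by that in CD4 cells was 1.58, 1.36 and 1.23 in WT 67, WT 70 and WT 71. It was 1.21, 1.11 and 1.01 in CKO 65, CKO 68 and CKO 72. All 3 CKO ratios lay below all 3 WT ratios, with WT 71 and CKO 65 close to each other (1.39 ± 0.176 and 1.11 ± 0.0970, SD, n = 3, exact two-sided permutation p = 0.1, the smallest possible).

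In the thymus no member was called in the main edgeR fit of any knockout comparison. In thymus DP, 0 were called lower and 0 higher, where 0.00860% and 0.0172% of 11634 genes were called. The median log2 was 0.00, and 3 members had an unadjusted p under 0.05, as had 822 of the 11634 genes. For 1 member the CKO libraries lay below all WT libraries and for 0 above, patterns of 5.47% and 6.58% of all genes tested. The lowest estimates were those of Rpl9 (-0.31), Rpl15 (-0.23) and Rpl10 (-0.23), and the highest were those of Rps10 (0.23), Rpl13a (0.17) and Rpl24 (0.11). Rps10 is counted at only 2.22 ± 0.758 CPM there.

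In thymus CD4, 0 members were called lower and 0 higher, and the background was 0 of 11839 genes in either direction. No member had an unadjusted p under 0.05, while 306 of the 11839 genes did. For 4 members the CKO libraries lay above all WT libraries and for 0 below, patterns of 3.93% and 6.12% of all genes tested. The median log2 was 0.32 (all genes 0.02), with 63 of 74 estimates positive, and it was 0.12 without CKO 14. Rplp0 had 1358, 1736 and 1548 CPM in WT and 3032, 1881 and 1567 CPM in CKO 14, CKO 17 and CKO 23. CKO 14 alone lay far above the rest. Rpl5 went the other way in that library, with 20.5 ± 1.52 CPM in WT and 4.37, 27.8 and 25.1 CPM in CKO. The markers of double-positive cells summed to 4420 to 6730 CPM in WT and to 8530, 1570 and 4470 CPM in CKO 14, CKO 17 and CKO 23, and their part in these values was not tested.

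In thymus CD8, 0 members were called lower and 0 higher, where 0.0805% and 0.0335% of 14911 genes were called. The estimates were small but mostly on 1 side: 69 of 74 were negative, with a median of -0.06 (all genes near 0). The median was -0.03 without WT 1 and -0.04 without CKO 2. For 15 members the CKO libraries lay below all WT libraries and for 1 above, patterns of 6.88% and 8.85% of all genes tested, and 12 had an unadjusted p under 0.05, as had 1548 of the 14911 genes. Rps2 had 1470 CPM in WT and 1384 CPM in CKO on average (log2 -0.10 ± 0.04, adjusted p = 0.372). Rps4x had 1456, 1452 and 1409 CPM in WT and 1397, 1311 and 1418 CPM in CKO (log2 -0.08 ± 0.04, adjusted p = 0.564). Rplp0 had 2684, 2565 and 2597 CPM in WT and 2638, 2498 and 2657 CPM in CKO, which overlap. By Xist and Ddx3y, CKO 2 and CKO 3 came from females and the other 4 libraries from males. With sex in the fit the median was -0.06 and 0 members were called. Ddx3y also varied in thymus DP (1.07 to 162 CPM in WT, 0 to 155 in CKO) and thymus CD4 (1.05 to 171 and 0 to 210). Both genotypes thus held both sexes there, and sex was not in those fits. All spleen libraries looked female, with Ddx3y at 0.221 CPM or less and Xist at 933 CPM or more.

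The members also differed between thymus populations of WT mice. From DP to CD4 cells, 42 of the 74 were called higher and 1 lower, where 21.7% of 11826 genes were called higher and 18.1% lower. The median log2 difference was 0.38. Rplp1 had the highest estimate, from 314 CPM in DP to 592 CPM in CD4 cells (log2 0.90 ± 0.12, adjusted p = 9.07e-05), followed by Rps18 (log2 0.71 ± 0.11). The 1 member called lower was Rpl15, from 101 to 83.0 CPM (log2 -0.30). The count of members called higher was 27 without DP WT 15 and 21 without DP WT 18, and Rpl15 was not called without DP WT 15, DP WT 18 or CD4 WT 15. The interaction of genotype and population in the thymus called 0 members in either direction, with 1 at an unadjusted p under 0.05 (263 of all 12216 genes), and the background was 0 of 12216 genes.

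Per length of the annotated main transcript, the members differed widely in level within a population. In WT spleen CD8 the median was 440 CPM per kilobase, the highest was Rplp1 (3194) and the lowest Rps28 (5.18), and 56 of 74 were at 100 or more. In CKO the median was 329. In WT spleen CD4 it was 326 and in CKO 298, with the same highest and lowest genes in WT (2244 and 4.57). Lengths of the main transcripts ran from 345 bases (Rps27) to 5179 bases (Rps15a), and a long annotated transcript that T cells do not use lowers the value per kilobase.

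Proteins of the ribosome under other symbols, and paralogs, moved in part with the members in spleen CD8. Rpsa, a small-subunit protein also known as the laminin receptor, averaged 2783 CPM in WT and 1830 CPM in CKO (log2 -0.63 ± 0.06, adjusted p = 1.12e-04). It was also called lower in spleen CD4 (log2 -0.40 ± 0.08, adjusted p = 0.00512). Rps3a1 averaged 1407 and 908 CPM and was called lower (log2 -0.66 ± 0.06, adjusted p = 1.61e-04). The paralogs Rpl36al (log2 -0.36 ± 0.08) and Rpl7l1 (log2 -0.34 ± 0.08) were called lower there too. Fau (log2 -0.22 ± 0.11, adjusted p = 0.195) was not, and the p53-responsive paralog Rps27l was at 11.1 and 11.6 CPM (log2 0.03 ± 0.14, adjusted p = 0.917).

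Other genes of translation give the setting. Of 29 translation factors and related proteins tested in spleen CD8, 16 were called lower and 0 higher, with a median log2 of -0.26, where 6.22% of all genes were called lower and 9.83% higher. Eef1a1, which brings aminoacyl-tRNA to the ribosome, went from 16090 to 11830 CPM (log2 -0.47 ± 0.06, adjusted p = 6.47e-04). Eef1b2 (log2 -0.52 ± 0.07) and Eef1g (log2 -0.48 ± 0.07), subunits of the exchange factor complex of Eef1a1, were also called lower. In spleen CD4, 6 of the 29 were called lower and 1 (Eif3l) higher (all genes 5.63% and 8.53%), with Npm1 (log2 -0.33 ± 0.06) and Eif3a (log2 -0.31 ± 0.06) among the lower.

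Of 30 genes of ribosome assembly, 7 were called lower and 0 higher in spleen CD8, beside 6.22% and 9.83% of all genes. Pes1, which acts in maturation of the large subunit, was among them (log2 -0.32 ± 0.07), as was the nucleolar GTPase Gnl3 (log2 -0.42 ± 0.11). In spleen CD4, where 5.63% and 8.53% of all genes were called, the count was 5 lower and 0 higher, with Ncl, the abundant nucleolar protein nucleolin (log2 -0.31 ± 0.08). Of 76 genes of the mitochondrial ribosome, 2 were called lower (Mrpl30 and Mrps2) and 1 higher (Mrpl39) in spleen CD8, and 0 lower and 4 higher in spleen CD4 (Mrps15, Mrps17, Mrpl33 and Mrpl39). These calls of mitochondrial ribosome genes were no more frequent than those over all genes. None of these lists, nor the one that follows, had a call in a knockout comparison of the thymus.

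Among 14 genes of the mTOR pathway, with Larp1 and Myc, 3 were called higher in both spleen populations, where 9.83% (CD8) and 8.53% (CD4) of all genes were called higher. Rps6kb1, the S6 kinase that phosphorylates Rps6, went from 88.5 to 125 CPM in spleen CD8 (log2 0.48 ± 0.08, adjusted p = 0.00205) and from 88.4 to 147 CPM in spleen CD4 (log2 0.74 ± 0.06, adjusted p = 2.46e-05). Akt1s1, an inhibitory partner of mTOR complex 1, had log2 fold changes of 0.55 ± 0.09 and 0.68 ± 0.08. Tsc1, part of the complex that restrains mTOR, had 0.34 ± 0.09 and 0.46 ± 0.07. In all, 3 were called higher and 1 lower in spleen CD8, and 4 higher and 0 lower in spleen CD4. The 1 lower was Myc (log2 -0.27), and the fourth in spleen CD4 was Mlst8 (log2 0.33).

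**Figure D5:**
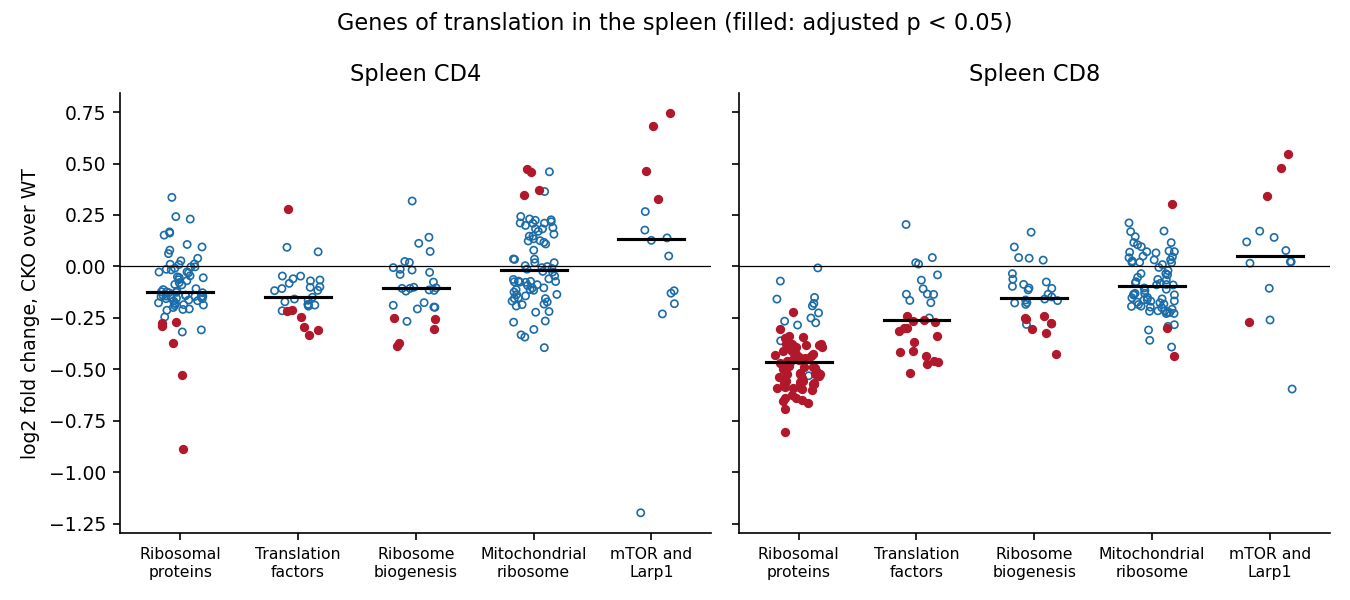
Log2 fold change, CKO over WT (vertical axis), of genes grouped by role in translation, for spleen CD4 (left) and spleen CD8 (right). Filled points passed adjusted p under 0.05, open points did not, and black lines are medians. In spleen CD8, 61 of 74 ribosomal proteins and 16 of 29 translation factors and related proteins are called lower. The counts are 7 of 30 for ribosome biogenesis genes and 2 of 76 for genes of the mitochondrial ribosome.

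Other cells and states moved with genotype in the spleen. In spleen CD8 the 6 markers of dividing cells summed to 129 to 150 CPM in WT and 285 to 426 CPM in CKO, and all 6 were called higher. The 9 myeloid markers summed to 16.9 to 24.7 CPM in WT and 31.0 to 46.6 CPM in CKO, and the 4 natural killer cell markers to 89.1 to 94.0 and 103 to 144 CPM. Most of the natural killer sum was Eomes (85.3 to 87.3 and 92.7 to 129 CPM), which CD8 T cells also express, while Ncr1 was at 0.264 to 0.662 and 1.56 to 1.81 CPM. The 6 B cell markers overlapped (19.9 to 27.5 and 23.4 to 28.2 CPM), and the 6 erythroid markers were at 0.608 CPM or less in sum, with Hba-a2 at 0. In spleen CD4 the myeloid markers summed to 63.2 to 91.0 CPM in WT and 103 to 243 CPM in CKO. The natural killer markers overlapped in sum there (25.6 to 30.6 and 25.3 to 27.2 CPM), but single markers went both ways. Klrb1c was lower in CKO (9.46 to 12.3 and 3.83 to 5.34 CPM), and Ncr1 was higher (0.752 to 1.08 and 2.25 to 2.35 CPM). Eomes, the largest part, overlapped (13.3 to 19.8 and 18.2 to 19 CPM), as did Klra8. Dividing-cell markers summed to 384 CPM in CKO 65 of spleen CD4 and to 174 to 213 CPM in the other 5 libraries. In CKO 65, CKO 68 and CKO 72 of spleen CD4, members lay at a median log2 of -0.23, -0.09 and -0.08 from the WT mean. The myeloid sums of these libraries were 171, 103 and 243 CPM. In the same order, spleen CD8 had members at -0.40, -0.40 and -0.54, with dividing-cell sums of 408, 285 and 426 CPM. The part of these cells and states in the difference of the ribosomal protein genes was not tested.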

How the data were processed

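The authors deposited raw read counts per gene as 3 tables, 1 for both spleen populations, 1 for thymus CD8, and 1 for the remaining thymus cells. Per the submitters' processing notes, HISAT2 and HTSeq were used with GRCm38. No version, annotation or strand setting is stated in those notes or labels, so reads of overlapping antisense genes cannot be told apart. Libraries were selected for poly(A) RNA with a kit that marks strand, per the labels' protocols. The tables list different gene sets, and each was analysed on its own.

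For a knockout comparison, the 6 libraries of 1 population were fitted with edgeR 4.0.16 in R 4.3.3 (filterByExpr, TMM scaling, quasi-likelihood test, Benjamini-Hochberg adjustment over all genes tested at 0.05). SEs were obtained by dividing a log2 fold change by the root of its F statistic. CPM values and shares use raw library totals, while fold changes use TMM scaling, so the ratio of 2 printed CPM means can differ slightly from the fitted fold change. Shares were compared with exact permutation tests, with exact (Clopper-Pearson) 95% intervals for single libraries. No 2 libraries of a group agreed within sampling noise (chi-square over its degrees of freedom at least 6.2), and 0 columns were left unmapped. The procedure was checked on simulated counts with the same spread for all genes and with unlinked libraries. That check does not cover the wide spread in thymus CD4 or the pairing of libraries by animal. Transcript lengths and overlaps come from GENCODE M21, and windows at transcript starts from RefSeq.

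The members and lists were chosen with earlier results of these data known. Named in each comparison are up to 10 called members by p, otherwise the 3 highest and 3 lowest, with a fixed set of members and related genes. Further members were named for their level or overlap after their values were seen. Some genes are not reported here by name but remain in every count.

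Numbers shared by titles pair spleen CD4 with spleen CD8, and thymus DP with thymus CD4. Deviations of a library from its group mean, correlated across genes, gave r of 0.0912 to 0.678 between libraries of 1 number in the spleen (-0.553 to 0.102 otherwise), and -0.265 to 0.394 in the thymus (-0.26 to 0.258).

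Also run were DESeq2 1.42.0, edgeR with the size factors of DESeq2, no TMM factor, TMM without the members, no filter, at least 5 CPM in 3 libraries, all 12 libraries of a table, each library left out, and the replicate block. Added after seeing the data were limma 3.58.1 (voom with quality weights), sex as a covariate in thymus CD8, and the comparison of CKO CD8 with CKO CD4.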

Additional observations from a re-analysis of the deposited data

Results flagged for a closer look

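For 14 ribosomal protein genes the knockout effect differed between spleen CD8 and spleen CD4 cells in a test of the difference itself (edgeR's quasi-likelihood test of the interaction over 12 libraries, adjusted p under 0.05). The difference of the log2 fold changes, CD8 minus CD4, was -0.61 for Rps21, -0.61 for Rpl37a, -0.60 for Rps18, -0.60 for Rpl35a, -0.55 for Rps15 and -0.54 for Rps20. It was -0.49 for Rps24, -0.43 for Rpl35, -0.41 for Rpl19, -0.41 for Rplp0, -0.40 for Rpl8, -0.38 for Rps9 and -0.38 for Rpl10. The remaining gene is not reported by name. All 14 were lost in the fit without any 1 of 7 libraries, as given above.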

How the results depend on the processing

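In spleen CD8 the count of members called lower stayed between 55 and 65 under every alternative run, with 0 called higher. In thymus DP and thymus CD4, 0 members were called under every alternative. In thymus CD8, 0 were called except 1 lower (Rps27a) with no filter, and 0 to 1 with 1 library left out. With the number shared by WT and CKO titles as a replicate block, 0 were called there. The labels tie these numbers to nothing shared between WT and CKO: correlations were 0.0699 to 0.184 for the same number and -0.161 to 0.00872 for others, and every library correlated best with its own number.

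In spleen CD4, 6 members were called lower, 10 with DESeq2, 11 with no filter and 3 to 7 with 1 library left out. Called higher were 0, against 1 with DESeq2, 1 with no filter, 1 with limma voom and 0 to 3 with 1 library left out. For the interaction in the spleen, 14 were called lower, 24 with DESeq2, 9 with DESeq2 size factors, 7 with no TMM factor, 9 with TMM factors without the members, 39 with no filter, 42 with the replicate block and 0 to 33 with 1 library left out. For CKO CD8 against CKO CD4, 8 were called higher, 13 with DESeq2, 36 with the replicate block and 3 to 6 with 1 library left out. The replicate block also raised the calls over all genes, from 383 to 1083 for the interaction and from 2656 to 5055 for CKO CD8 against CKO CD4. In WT thymus, 42 were called higher and 1 lower, against 21 to 47 and 0 to 1 with 1 library left out. The replicate block changed no other count of calls by over 1.5 times. The cause of these changes was not tested. Shares of counts were recomputed without the 20 highest genes, without mitochondrially encoded genes (only the thymus DP and CD4 table lists any), and with other member rules, and kept their direction. With 1 library left out they also kept it, except in thymus DP, where the small difference turned negative without WT 15, WT 18 or CKO 23.

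Members under 50 CPM in WT spleen CD8 had a median SE of 0.11, against 0.07 for the rest, and a median log2 of -0.27, against -0.49. The part of depth in their fewer calls was not tested.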
